A study of Mus musculus with 3 samples.

Results

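Described here are 41 genes of mitosis, the spindle and the kinetochore in lymphoma B cells of the pBIC mouse. They were chosen by symbol, from a list that runs from the cyclins that start mitosis to the motors that end it, and all 41 were found among the 37646 genes counted. RNA came from 3 splenic tumours of moribund C57BL/6 mice, 1 library each, and no other group was analysed here. All the tumours share the genotype p53F/F, Blimp1F/F, IKK2castopF/stopF and Cg1Cre/+. Cre from the Ighg1 (C gamma 1) locus is meant to delete Trp53 and Prdm1 (BLIMP1) and to switch on an active form of the kinase IKK2, and the labels class the model as ABC-DLBCL, the activated B cell type of diffuse large B cell lymphoma. Cells positive for B220 and for the GFP reporter were sorted. The sources used here do not give the age of the mice.

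During mitosis a cell condenses its copied chromosomes, attaches each to spindle microtubules through a kinetochore, and pulls the copies apart before it divides. CDK1 bound to cyclin B drives entry. The spindle checkpoint holds the cell until every kinetochore is attached, and then the anaphase-promoting complex (APC/C) with CDC20 marks cyclin B and securin for destruction. Most of these genes are transcribed late in the cell cycle. Many of their promoters carry a cell cycle genes homology region (CHR), bound by the MuvB complex, and CCAAT boxes, bound by NF-Y. In resting cells MuvB joins E2F4 and an RB relative in the repressive DREAM complex, which p53 can also bring about through p21. In dividing cells it joins B-MYB and FOXM1, and activates. Germinal centre B cells are among the fastest dividing cells of the body, and mitotic genes are high in aggressive B cell lymphomas.

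The promoters of the members were read from the RefSeq starts of build GRCm38.p6, the assembly of mm10, as windows from 250 bases before to 50 bases after the start. Of the 41 members 33 had a window. Those without were Ccna2, Foxm1, Aurkb, Incenp, Spc24, Kif20a, Tpx2 and Dlgap5. A CHR was searched as TTTGAA or TTTAAA and the NF-Y box as CCAAT, each on both strands, and a gene counted when any of its windows held a match. A CHR match was present in 28 of 33 members (84.8%), against 30.6% of the 27025 genes with a window. TTTGAA accounted for 25 members (75.8%, against 20.2% of all genes) and TTTAAA for 9 (27.3%, against 14.9%), some members holding both. CCAAT was present in 25 members (75.8%, against 41.1%), and 18 members held at least 2 matches to it (54.5%, against 13.3%). Both motifs together were present in 24 members (72.7%, against 12.2%). The members and the background are described here with no test, and a match is a string of letters, not a measured binding site.

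The following windows are those of the 5 genes with the highest level per length among members with a CHR match. They show how the letters are arranged. Capitals mark every match to the CHR or to CCAAT on either strand, where the reverse strand reads TTCAAA and ATTGG, and neighbouring or overlapping matches run together. The start site is the base after the first 250.
Cdc20, chr4:118437294-118437593, reverse strand: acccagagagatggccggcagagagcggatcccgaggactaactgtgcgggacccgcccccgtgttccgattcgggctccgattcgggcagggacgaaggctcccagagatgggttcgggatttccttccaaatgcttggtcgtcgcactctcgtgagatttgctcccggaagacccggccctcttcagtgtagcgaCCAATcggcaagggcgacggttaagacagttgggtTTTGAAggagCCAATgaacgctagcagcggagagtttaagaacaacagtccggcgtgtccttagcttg
Ube2c, chr2:164769679-164769978, forward strand: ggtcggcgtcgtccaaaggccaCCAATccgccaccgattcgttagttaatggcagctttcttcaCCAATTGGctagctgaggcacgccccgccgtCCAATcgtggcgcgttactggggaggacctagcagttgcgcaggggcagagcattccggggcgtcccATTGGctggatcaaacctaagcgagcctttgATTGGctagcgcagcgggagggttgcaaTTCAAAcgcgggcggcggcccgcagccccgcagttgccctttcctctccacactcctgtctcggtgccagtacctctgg
Top2a, chr11:99024140-99024439, reverse strand: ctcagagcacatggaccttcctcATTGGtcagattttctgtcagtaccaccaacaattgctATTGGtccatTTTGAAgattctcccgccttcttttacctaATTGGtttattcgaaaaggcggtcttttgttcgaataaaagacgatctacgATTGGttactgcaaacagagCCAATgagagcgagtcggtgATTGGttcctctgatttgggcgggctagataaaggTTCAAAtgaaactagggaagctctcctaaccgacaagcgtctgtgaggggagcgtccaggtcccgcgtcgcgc
Ccnb2, chr9:70421505-70421804, reverse strand: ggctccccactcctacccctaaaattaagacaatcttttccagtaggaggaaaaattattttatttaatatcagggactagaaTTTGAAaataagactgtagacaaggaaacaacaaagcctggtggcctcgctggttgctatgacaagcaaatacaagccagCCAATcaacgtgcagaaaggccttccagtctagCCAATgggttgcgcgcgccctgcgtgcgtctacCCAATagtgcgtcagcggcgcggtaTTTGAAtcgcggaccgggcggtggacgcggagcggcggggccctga
Mki67, chr7:135716330-135716629, reverse strand: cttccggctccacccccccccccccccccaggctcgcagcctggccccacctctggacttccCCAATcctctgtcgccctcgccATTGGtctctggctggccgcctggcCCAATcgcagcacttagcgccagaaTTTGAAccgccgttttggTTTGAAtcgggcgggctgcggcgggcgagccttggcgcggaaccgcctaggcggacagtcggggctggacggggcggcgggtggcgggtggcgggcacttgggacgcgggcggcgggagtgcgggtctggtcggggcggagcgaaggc
Cdc20 and Ube2c, which serve the same ubiquitin ligase, each had 1 CHR match, beginning 18 and 29 bases before the start. Ccnb2 had a match that began at base 5 of the transcript and another 167 bases before the start, with 3 CCAAT boxes between them. Top2a had 6 CCAAT matches upstream and CHR matches 179 and 23 bases before the start. In Mki67 both CHR matches lay further up, at 116 and 98 bases before the start.

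Most CHR matches of the members lay near the start. A CHR match that began within 50 bases of the start on either side was found in 25 of 33 members (75.8%), against 9.54% of all genes. The fullest interval was the first 25 transcribed bases, with 15 members (45.5%) against 2.36% of all genes. CCAAT matches stood just upstream of it. Between 100 and 1 bases before the start they were found in 23 members (69.7%, against 22%), and the interval from 75 to 50 bases before the start held 14 (42.4%, against 8.21%). In the window's last 150 bases alone, TTTGAA was present in 24 members (72.7%, against 9.23% of all genes) and CCAAT in 23 (69.7%, against 26.3%). No match to either motif was found for Mad2l1, Pttg1, Nuf2 and Nusap1, which says only that these letters are not in those windows. Bub1 had CCAAT alone, and Birc5, Ndc80, Kif2c and Anln had a CHR match alone.

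**Figure D1:**
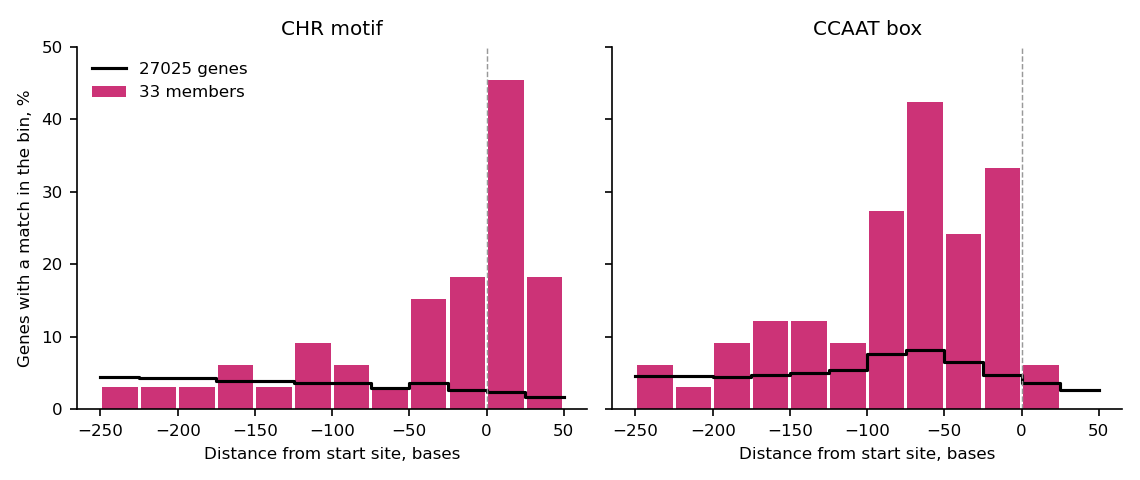
Share of genes with a match in each interval of 25 bases (vertical axis, %) by distance from the RefSeq start (horizontal axis, bases) for the CHR (left) and CCAAT (right). Bars are the 33 members with a window and the black line all 27025 genes; the CHR bar of the first 25 transcribed bases reaches 45.5%, where the line is at 2.36%.

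Other genes of cell division were compared for the same letters. A CHR match was held by 17 of 33 further spindle and cytokinesis genes (51.5%), 11 of 23 genes of the inner kinetochore and its linker complexes (47.8%) and 5 of 7 condensin genes (71.4%). DNA replication genes, which are transcribed earlier in the cycle, had it in 7 of 28 (25%), below the 30.6% of all genes, although 20 of 28 (71.4%) held CCAAT. APC/C subunits and regulators other than the members had it in 3 of 16 (18.8%), cohesin genes in 2 of 10 (20%) and genes of the CDK1 switch in 1 of 6 (16.7%). Other checkpoint genes had it in 4 of 6 (66.7%) and the MuvB, E2F and NF-Y regulators in 9 of 19 (47.4%).

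Libraries held 15022902 to 15141009 counts, and levels are given as CPM, a gene's counts scaled to a common library total with TMM factors. All 8 B cell markers reached 1 CPM in every tumour. Trp53 had 23.8, 20.8 and 61.2 CPM and Prdm1 6.39, 20.0 and 9.32 CPM in tumours 1, 2 and 3, and Ikbkb, which encodes IKK2, 436, 282 and 391 CPM, but counts over a whole gene show neither the deleted exons nor the transgene. The same kappa V gene, Igkv6-17, led in each tumour, with 93.2%, 98.7% and 99.3% of kappa V counts (95% Clopper-Pearson intervals 92.8 to 93.6%, 98.5 to 98.9% and 99.2 to 99.4%, covering counting error only). The same heavy chain V gene, Ighv8-11, led as well, with 74.0%, 81.4% and 83.2% of heavy V counts (intervals 72.9 to 75.2%, 80.1 to 82.7% and 82.2 to 84.1%). Whether the tumours arose separately was not tested, which bears on every n of 3, and p-values measure only the spread between these samples. In bulk RNA a larger share of cells in mitosis and more mitotic RNA per cell cannot be told apart.

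All 41 members were detected well above the counting floor in every tumour and all passed the filter on low counts. The lowest was Pttg1, with 202, 261 and 238 counts. Together they took 4652, 5011 and 3398 CPM in tumours 1, 2 and 3. Their median was 74.3, 89.6 and 68.2 CPM, against 32.7, 32.2 and 32.3 CPM over the 11478 genes tested. Per length, as TPM (the share per length over union exons, scaled to the same total), the median of the members was 48.5 ± 6.58 (SD, n = 3) and that of all genes tested 21.7 ± 1.85. The members' median lay above that of the tested genes in each tumour and was highest in tumour 2. In mean TPM, Anln, Cenpf, Ndc80, Nuf2, Prc1 and Cenpe lay below the middle of the tested genes, from the 27.0th percentile for Anln to the 46.8th for Cenpe. Exons of 7 members overlap a counted gene on the opposite strand (Kif20a, Cdc20, Nusap1, Ccna2, Cdca8, Kif4 and Prc1), and whether the counting used strand is not given, so reads of the pairs cannot be told apart there. Levels of different genes are compared below in TPM only, and levels of a gene between tumours in CPM.

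**Figure D2:**
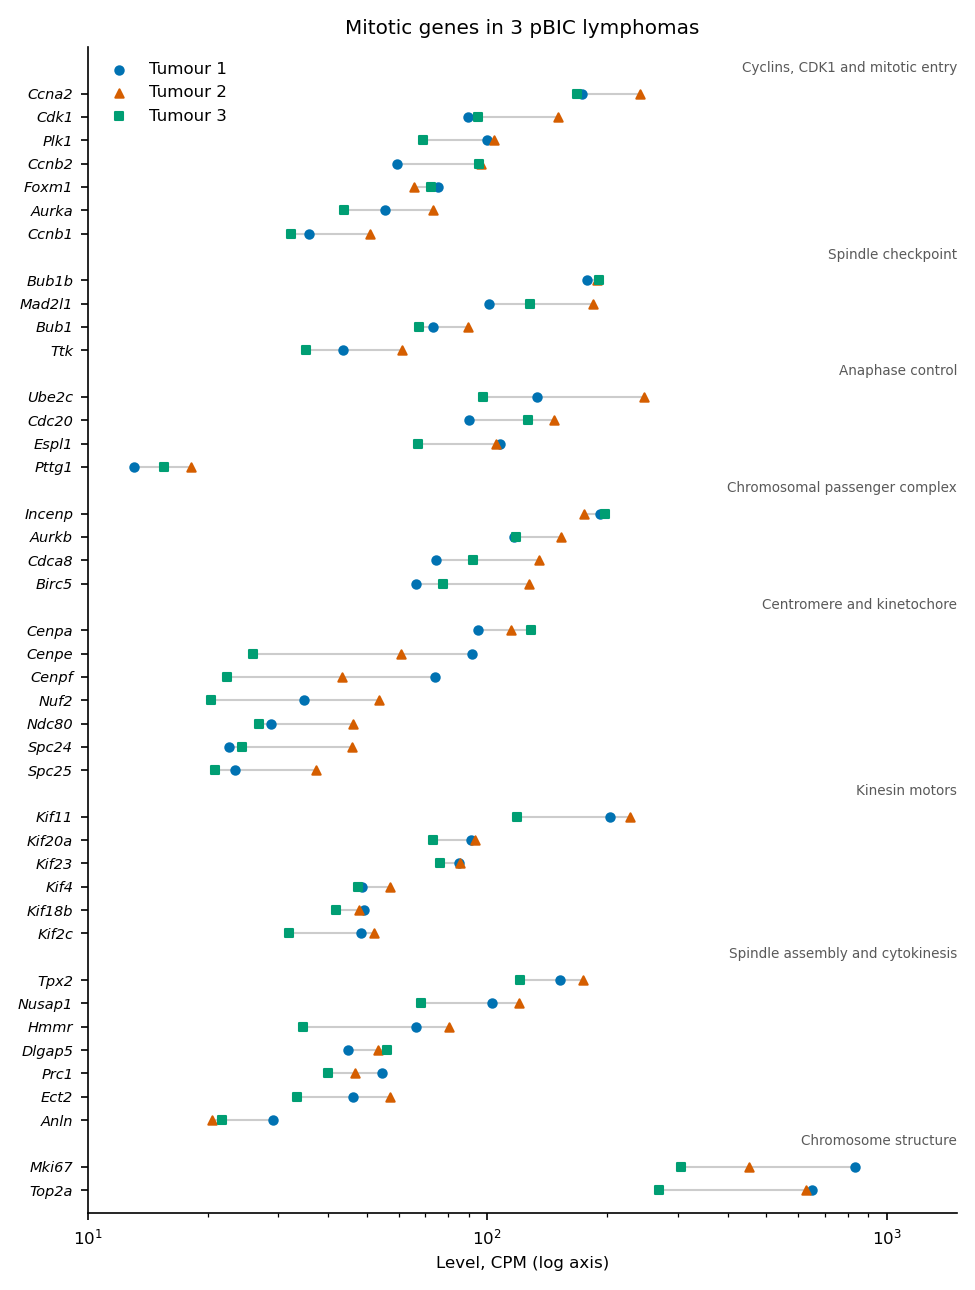
CPM (horizontal, log axis) of the 41 members in tumours 1 (circles), 2 (triangles) and 3 (squares), grouped by role and ordered by mean CPM; a grey line joins the lowest and highest tumour of each gene. The levels run from 13.0 CPM for Pttg1 to 833 CPM for Mki67, and the widest lines are those of Cenpe and Cenpf.

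Among the genes that start mitosis, the cyclins were unequal. Ccnb2, the Golgi-associated B-type cyclin, had 124, 180.2 and 185 TPM in tumours 1, 2 and 3, and Ccnb1, the B-type cyclin that enters the nucleus, had 27.2, 34.5 and 22.7 TPM. Every value of Ccnb2 was above every value of Ccnb1. The difference Ccnb1 minus Ccnb2 in log2(TPM + 1) was -2.49 ± 0.43 (SD, n = 3), a 5.62-fold lower level in 3 of 3 tumours, and the exact test that flips signs, run two-sided, gave p = 0.25. No smaller p can come from 3 tumours. The value was 0.3 after Benjamini-Hochberg adjustment over the 6 gene pairs compared. The size of the difference depended on the length used: it was -1.74 with the longest annotated transcript and -1.05 without division by length. Ccnb2 has a transcribed pseudogene, Ccnb2-ps, with 40, 16 and 5 counts, so that few reads of Ccnb2 can have been assigned there. Ccna2, the cyclin of S phase and early mitosis, had 142 ± 24.3 TPM. Cdk1, the catalytic partner of these cyclins, had 67.5 ± 17.0 TPM and exceeded Ccnb1 by 1.22 ± 0.14 in log2(TPM + 1), in 3 of 3 tumours (the same exact p).

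Across tumours, Cdk1 had 89.6, 151 and 94.9 CPM and Ccna2 173, 242 and 168 CPM in tumours 1, 2 and 3, both highest in tumour 2. Ccnb1 showed that order too, with 35.9, 51.0 and 32.2 CPM. Ccnb2 had 59.3, 96.6 and 95.2 CPM, and here tumours 2 and 3 were alike and tumour 1 low. The polo kinase gene Plk1, which acts from entry to cytokinesis, had 100.1, 104 and 69.2 CPM, and Aurka, the kinase of the spindle poles, 55.5, 73.3 and 43.9 CPM, both lowest in tumour 3. Foxm1, the transcription factor that drives many of these genes in G2 phase, varied little, with 75.5, 65.4 and 72.4 CPM, highest in tumour 1. That order did not hold with the trend on length and GC content removed, described below, where it had 69.6, 73.6 and 69.8 CPM.

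The checkpoint genes differed in how steady they were. Bub1b, which encodes the checkpoint protein BUBR1, had 178, 189 and 191 CPM, a 1.07-fold range and the narrowest of the 41 members. With the trend on length and GC content removed its range was 1.09-fold, and Incenp (1.04-fold) and Foxm1 (1.06-fold) were narrower. Bub1, a relative of Bub1b and a kinase of the kinetochore, had 73.2, 89.6 and 67.4 CPM. Per length Bub1 lay below Bub1b by 1.30 in log2(TPM + 1) (Bub1 minus Bub1b, -1.30 ± 0.21, SD, n = 3, in 3 of 3 tumours, exact p = 0.25). Mad2l1, whose product seizes CDC20 while kinetochores are unattached, had 101, 184 and 128 CPM, and Ttk, the kinase MPS1 that starts the signal, 43.6, 61.4 and 35.2 CPM. Both were highest in tumour 2, and their lowest tumours differed, tumour 1 for Mad2l1 and tumour 3 for Ttk.

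Genes that trigger anaphase included the most abundant members by mean TPM. With union exon lengths, Cdc20, the APC/C activator, led all 41 with a mean of 194 ± 36.2 TPM (SD, n = 3). Ube2c, the APC/C's ubiquitin-conjugating enzyme, came second with 182 ± 81.8 TPM. In tumour 1 alone, Mki67 and Top2a were the highest members, with 265 and 231 TPM. Cdc20 had 89.9, 147 and 127 CPM across tumours. Ube2c had 133, 248 and 97.4 CPM, so tumour 2 stood apart from the others. Pttg1, the securin that restrains separase, had 13.0, 18.1 and 15.5 CPM, and Espl1, separase itself, 108, 105 and 67.0 CPM with its low value in tumour 3. Securin and separase did not keep an order per length: Pttg1 minus Espl1 was -0.88, -0.40 and 0.02 in log2(TPM + 1), with a mean of -0.42 ± 0.45 (exact p = 0.5), and -2.49 without division by length. Mad2l1 minus Cdc20 was -1.98 ± 0.15 in 3 of 3 tumours (exact p = 0.25), but 0.17 without division by length. The annotated union exon length of Mad2l1 is 8390 nt and that of Cdc20 1868 nt, and the transcripts present were not measured, so the sign of that difference is not settled.

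The chromosomal passenger complex corrects faulty attachments and then moves to the midzone for cytokinesis. Its kinase Aurkb had 127, 149 and 119 TPM and its scaffold Incenp 142, 115 and 136 TPM, levels that overlapped. Birc5 (survivin) had 62.2, 107 and 67.8 TPM and Cdca8 (borealin) 45.9, 74.5 and 53 TPM, and no value of Birc5 or Cdca8 reached the lowest of Aurkb or Incenp. The tumours differed in the smaller subunits more than in the scaffold. Birc5 had 66.2, 127 and 77.5 CPM and Cdca8 74.3, 135 and 92.3 CPM, both highest in tumour 2, while Incenp had 192, 174 and 197 CPM and was lowest there. Aurkb had 117, 153 and 118 CPM. Aurka minus Aurkb was -0.96 ± 0.20 in log2(TPM + 1) in 3 of 3 tumours (exact p = 0.25).

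At the kinetochore, genes of the outer, microtubule-binding layer were lower than the centromeric histone. Cenpa, the histone H3 variant that marks centromeres, had 57.7 ± 7.02 TPM (SD, n = 3), and 94.7, 115 and 129 CPM with its highest level in tumour 3. The 4 subunits of the NDC80 complex, the main microtubule coupler, had 15.6 ± 4.17 TPM for Ndc80, 17.1 ± 7.33 TPM for Nuf2, 35.7 ± 13.1 TPM for Spc24 and 25.5 ± 7.24 TPM for Spc25. These subunits are present in equal numbers in the complex. Their CPM moved in a like way, with Ndc80 at 28.8, 46.0 and 26.8, Nuf2 at 34.8, 53.7 and 20.4, Spc24 at 22.6, 45.8 and 24.4 and Spc25 at 23.4, 37.4 and 20.8 CPM in tumours 1, 2 and 3. All 4 were highest in tumour 2. Cenpe, a kinesin of the kinetochore's fibrous corona, and Cenpf, a corona and nuclear matrix protein, had another order. Cenpe had 91.5, 61.0 and 25.9 CPM and Cenpf 73.9, 43.3 and 22.3 CPM, highest in tumour 1 and lowest in tumour 3.

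Among the kinesin motors, Kif11 (Eg5), which pushes the spindle poles apart, was the most abundant at 73.9 ± 23.0 TPM (SD, n = 3), with 203, 228 and 119 CPM across tumours and a low value in tumour 3. Kif20a, needed for cytokinesis, had 91.2, 93.2 and 73.2 CPM, and Kif23, the motor of centralspindlin, 85.2, 85.3 and 76.2 CPM. Kif4, a motor of chromosome arms and the midzone, had 48.7, 57.1 and 47.4 CPM and Kif18b, which trims astral microtubules, 49.1, 47.8 and 41.9 CPM. Kif2c (MCAK), a microtubule depolymerase of centromeres, had 48.4, 52.1 and 31.9 CPM. All 6 motors were lowest in tumour 3, though the range exceeded 1.5-fold for only Kif11 and Kif2c. With the trend on length and GC content removed, Kif23 and Kif4 were lowest in tumour 1 instead. Kif23 then had 75.4, 94.1 and 78.0 CPM and Kif4 46.0, 59.8 and 48.0 CPM.

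Spindle assembly genes showed that order in part. Tpx2, the activator of Aurora A, had 152, 173 and 121 CPM, Nusap1, a microtubule bundler, 103, 120.2 and 68.2 CPM, and Hmmr, a spindle pole protein, 66.5, 80.3 and 34.7 CPM, all lowest in tumour 3. Ect2, the exchange factor that activates RhoA for the cleavage furrow, had 46.1, 57.2 and 33.5 CPM and followed them. Prc1, which crosslinks midzone microtubules, had 54.6, 46.8 and 40.0 CPM and Anln, an actin-binding scaffold of the furrow, 29.1, 20.5 and 21.6 CPM, both highest in tumour 1. Dlgap5 (HURP), a stabiliser of kinetochore fibres, had 44.9, 53.2 and 56.1 CPM and was highest in tumour 3. Anln was also the member with the lowest level per length, 7.95 ± 2.04 TPM.

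Top2a and Mki67 both encode proteins of the mitotic chromosome. Per length their means were 173 ± 74.4 and 161 ± 91.8 TPM (SD, n = 3), below the means of Cdc20 and Ube2c. In tumour 1, however, Top2a had 231 and Mki67 265 TPM, above Cdc20 (154 TPM) and Ube2c (164 TPM). Both lay below Cdc20 and Ube2c in tumours 2 and 3. Top2a, the topoisomerase that untangles sister chromatids, had 649, 629 and 269.7 CPM, with tumours 1 and 2 alike and tumour 3 low. Mki67, the Ki-67 protein that coats chromosomes and is the common stain for dividing cells, had 833, 451 and 306 CPM, and here tumour 1 stood above the others.

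The edgeR test for variability asks whether a gene differed between tumours more than genes of like abundance did. After Benjamini-Hochberg adjustment over all 11478 genes it called 0 of 41 members, against 16 genes (0.139%) in all. At an unadjusted p under 0.05 it found 5 members (12.2%), against 6.27% of all genes, and a limma voom version added after seeing the data found 4 and also called 0. The smallest edgeR p was that of Cenpe, with a 3.54-fold range between tumours and an adjusted p of 0.579. Next were Cenpf with 3.32-fold (0.645), Mki67 with 2.72-fold (0.680), Top2a with 2.41-fold (0.768) and Ube2c with 2.54-fold (0.775), the adjusted p in brackets. Nuf2 had a range of 2.63-fold (edgeR adjusted p = 0.892) and Hmmr of 2.32-fold (0.931). Spc24, Birc5 and Kif11 had ranges of 2.03, 1.92 and 1.92-fold and an edgeR adjusted p of 0.997 each. No member passed under any of the settings tried, where the lowest adjusted p was 0.285, for Cenpe with no filter on low counts. The 16 calls among all genes became 0 without tumour 1, 0 without tumour 2 and 11 without tumour 3.

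The range between tumours had a like median among members and among all genes. It was 1.63-fold for the 41 members and 1.64-fold for all genes tested. More than a 2-fold difference between any pair of tumours was seen for 8 members (19.5%), against 28.7% of all genes. These were Cenpe, Cenpf, Mki67, Top2a, Ube2c, Nuf2, Hmmr and Spc24. The share of all genes depended on the filter: it was 35.2% with a mean count of at least 10 and 62.9% with no filter beyond 1 count. The members' median CPM was above that of the genes tested, and the shares were not matched for level. The number of members was 5 without tumour 1, 4 without tumour 2 and 1 without tumour 3, where Spc24 remained. Each of these is the count of the pair of tumours left, given by direction below, and could not rise, so it is no check of stability. In 7 of the 8, all but Spc24, the lowest value was that of tumour 3. Tumour 3 lay more than 2-fold below tumour 1 for 4 members (9.76%, against 9.91% of all genes) and below tumour 2 for 5 (12.2%, against 7.94%). Tumour 2 lay more than 2-fold above tumour 1 for 1 member, Spc24 (2.44%, against 3.55%). No member lay past 2-fold in the other directions, where all genes had 10.1% for tumour 2 below tumour 1, 4.89% for tumour 3 above tumour 1 and 9.26% for tumour 3 above tumour 2. At 1.5-fold, 24 members (58.5%, against 61.8% of all genes) differed between some pair of tumours. Of these, 19 were lower in tumour 3 than in tumour 2 (46.3% of the members, against 18.9%), and 0 were higher, against 19.6%. Tumour 2 exceeded tumour 1 by 1.5-fold for 11 members (26.8%, against 15.9%) and fell short of it for 2, Cenpf and Mki67 (4.88%, against 21.4%).

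Many members had the tumours in a like order. Of 41 members 28 (68.3%) were highest in tumour 2, against 35.8% of all genes tested, 9 (22%) in tumour 1, against 32.4%, and 4 (9.76%) in tumour 3, against 31.8%. The lowest level was in tumour 3 for 26 members (63.4%, against 33%), and in tumour 2 for 3 (7.32%, against 34.5%). The full order of tumour 2 over 1 over 3 held for 19 members (46.3%, against 17.5%). Lower in tumour 3 than in tumour 2 were 35 of 41 members, against 5897 of the 11478 genes tested. The median log2 ratio of tumour 3 over tumour 2 was -0.56 over members and -0.02 over all genes. That of tumour 2 over tumour 1 was 0.27 against -0.00, and that of tumour 3 over tumour 1 was -0.17 against 0.00. With 1 library for each tumour these ratios have no replicate check, and the members are not replicates of a tumour.

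**Figure D3:**
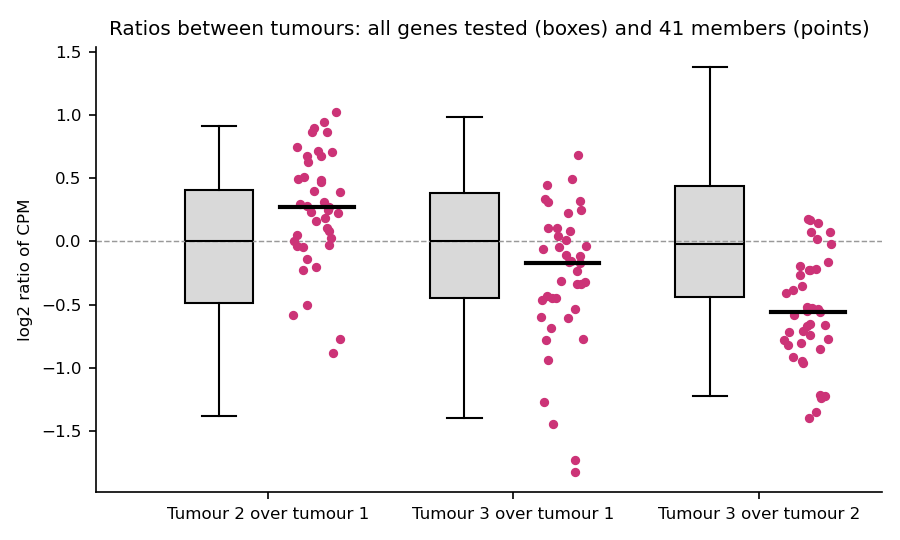
log2 ratio of CPM (vertical axis) for each pair of tumours, with boxes for the 11478 genes tested (quartiles, median line, whiskers at the 5th and 95th percentiles) and points for the 41 members (black bar, median). The member median lies at -0.56 for tumour 3 over tumour 2, where the box is centred on -0.02.

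Transcript length moved with these ratios over the whole libraries. Across the 11470 tested genes with a length and GC content, the Spearman correlation of the log2 ratio of tumour 2 over tumour 1 with the length of the longest annotated transcript was -0.48, and -0.54 across the 41 members. For tumour 3 over tumour 1 the values were -0.27 and -0.42, and for tumour 3 over tumour 2 they were 0.21 and -0.09. With GC content the members' correlation was 0.43 for tumour 3 over tumour 2 and 0.30 for tumour 3 over tumour 1 (all genes 0.14 and 0.22), and -0.05 for tumour 2 over tumour 1 (all genes 0.07). These correlations are over genes that share their libraries. Genes of 1000 to 2000 nt had a median log2 ratio of tumour 2 over tumour 1 of 0.42, and genes over 10000 nt of -0.94. Cenpf (11130 nt) and Mki67 (10061 nt) are the only members over 10000 nt, and Cenpe has 7910 nt. Their ratios of tumour 2 over tumour 1 were -0.77 for Cenpf, -0.88 for Mki67 and -0.58 for Cenpe, and genes of 7000 to 10000 nt had a median of -0.68. Their ratios of tumour 3 over tumour 2 were -0.96, -0.56 and -1.24, while the median of genes over 10000 nt was 0.23 and that of genes of 7000 to 10000 nt 0.33. The part of length and GC content in the members' ratios was not tested beyond the correction that follows.

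**Figure D4:**
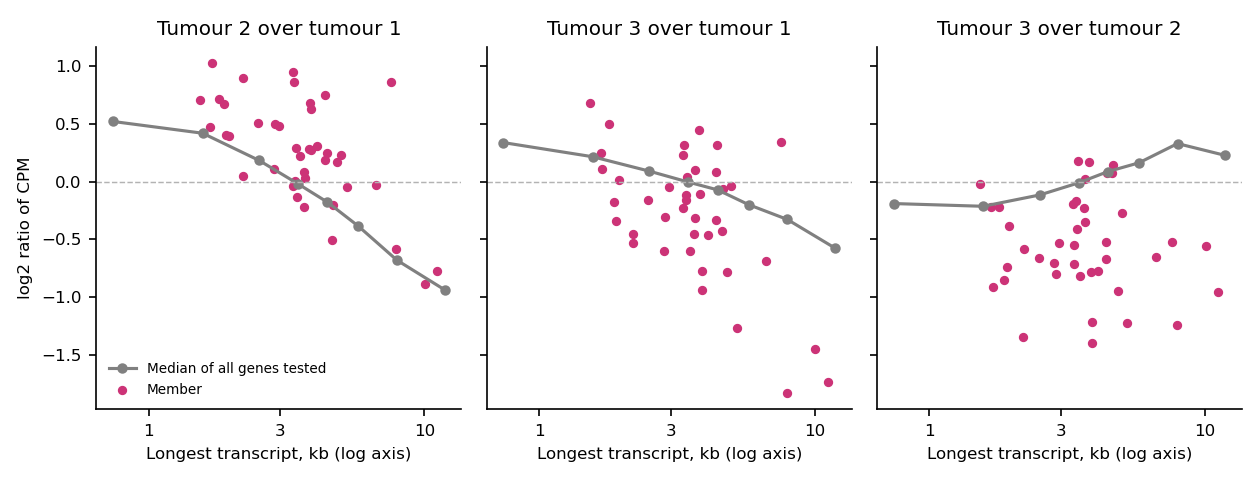
log2 ratio of CPM (vertical axis) against the length of the longest annotated transcript (horizontal, log axis, kb) for the 3 pairs of tumours. Points are the 41 members and the grey line joins the medians of all tested genes in 8 length classes; in the panel of tumour 3 over tumour 2 most members lie under the line.

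A trend on union exon length and GC content was then removed from each library. The length here was not that of the longest transcript used above. This correction was planned for the test and extended to the levels after seeing the data. With it 31 members (75.6%, against 39% of all genes) were highest in tumour 2, and 23 (56.1%, against 32.1%) were lowest in tumour 3, so more members than before had their highest level in tumour 2 and fewer their lowest in tumour 3. The median log2 ratio over members was 0.38 for tumour 2 over tumour 1 (0.11 over all genes), -0.55 for tumour 3 over tumour 2 (-0.03) and -0.04 for tumour 3 over tumour 1 (0.09). The tumour with the highest level changed for 7 members. Top2a became highest in tumour 2, with 557, 693 and 285 CPM, as did Foxm1, Espl1, Prc1 and Dlgap5. Plk1 became highest in tumour 1, with 109 and 98.3 CPM in tumours 1 and 2, and Ccnb2 in tumour 3, with 97.8 CPM against 86.1 CPM in tumour 2. Mki67 still led in tumour 1, with 701, 524 and 313 CPM, and its tumour 2 value then lay nearer to tumour 1 than to tumour 3 in ratio. Cenpe had 79.1, 66.3 and 27.5 CPM and Cenpf 57.2, 52.5 and 23.7 CPM after the correction, so their ranges shrank to 2.88 and 2.41-fold. More than a 2-fold difference between any pair of tumours was then seen for 9 members (22%), against 24.9% of all genes. Mad2l1 (2.24-fold) and Espl1 (2.14-fold) were added to those past 2-fold before, and Spc24 (1.81-fold) dropped out. The sources used here give no RNA integrity values, and the part of RNA quality in the length trend was not tested.

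Markers of other cells that a spleen could hold were read in the same libraries. Defining erythroid precursor genes were near 0, with Gata1 at 1.23, 0.901 and 0.586 CPM, Klf1 at 0.775, 0.901 and 0.782 CPM and Epor at 0.323, 0.555 and 0.521 CPM in tumours 1, 2 and 3. The summed 10 erythroid markers had 230.4, 254 and 300.2 CPM, of which the transferrin receptor gene Tfrc, also used by dividing lymphocytes, gave 221, 226 and 163 CPM, and globin genes were highest in tumour 3, where most members were lowest. Of 8 neutrophil markers 0 reached 1 CPM in every tumour, and their sum, 55.8, 20.9 and 3.19 CPM, had the order of Cenpe, Cenpf and Mki67. Ngp led them with 24.0, 5.89 and 0.977 CPM in tumours 1, 2 and 3. Ltf had 6.91, 1.94 and 0.261 CPM, while Elane and Mpo had at most 1.74 CPM. Of 7 macrophage markers 1, Csf1r, reached 1 CPM in all tumours, and their sum was 9.3, 27.2 and 6.19 CPM, highest in tumour 2. The 7 T cell markers summed to 48.2, 38.4 and 49.1 CPM, with Lck highest in tumours 1 and 2 and Cd3g in tumour 3, and 6 of them reached 1 CPM in all tumours. Lck fell over tumours 1, 2 and 3 (31.1, 11.8 and 9.38 CPM), while Cd3g (3.94, 7.35 and 12.1 CPM) and Cd8a rose. The 8 B cell markers summed to 4109, 2288 and 2279 CPM, highest in tumour 1. The 5 plasma cell markers, some shared with activated B cells, summed to 413, 697 and 492 CPM and the 5 dendritic cell markers to 13.8, 21.9 and 16.4 CPM, both highest in tumour 2 as most members were. Jchain and Irf4 gave most of the plasma cell sum, in unlike orders. Jchain had 35.5, 413 and 232 CPM, highest in tumour 2, and Irf4 277, 107 and 189 CPM, lowest there. Sdc1, which marks plasma cells at the surface, had at most 0.485 CPM. Of the dendritic cell markers, Flt3 (2.58, 11.0 and 9.51 CPM), Xcr1 and Itgax were highest in tumour 2, while Zbtb46 (6.00, 3.61 and 4.37 CPM) and Siglech were lowest there. The 4 NK cell markers summed to 10.2, 9.91 and 2.08 CPM, lowest in tumour 3 as most members were, and Prf1, which cytotoxic T cells also express, gave 9.17, 9.29 and 1.89 CPM of this, while Ncr1 and Klrb1c had at most 0.258 CPM. The 5 markers of stroma and endothelium summed to 2.71, 0.763 and 0.586 CPM and the 4 platelet markers to 0.904, 1.11 and 2.22 CPM. The part of any of these cells in the order of the tumours was not tested.

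Other genes of the cell cycle were read from lists set by function, and none of their genes passed the edgeR variability test. DNA replication genes were mostly highest in tumour 2. Of 34 such genes 30 were highest in tumour 2, against 35.8% of all genes tested. Their median log2 ratio was 0.61 for tumour 2 over tumour 1 and -0.57 for tumour 3 over tumour 2. Mcm6 and Mcm5, subunits of the replicative helicase, had 356, 555 and 382 CPM and 250.3, 389.6 and 276 CPM. Genes of the CDK1 switch were highest in tumour 2 in 9 of 10, among them Cks1b, a small subunit of CDK complexes, with 57.9, 124 and 88.2 CPM, and the phosphatase regulator Arpp19 with 124, 184 and 174 CPM. All 7 other checkpoint genes were highest there too, with Bub3 at 163, 249.9 and 183 CPM and Trip13, an enzyme that takes the checkpoint complex apart, at 69.9, 96.6 and 78.8 CPM.

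The inner kinetochore and linker genes were highest in tumour 2 in 16 of 26, against 35.8% of all genes tested. Among the others, Pmf1 had 89.4, 147 and 153 CPM and Zwint 82.1, 110.1 and 122 CPM, both highest in tumour 3. Of the 36 other spindle and cytokinesis genes 35 passed the filter, all but Psrc1, and 16 were highest in tumour 2, with Tacc3 at 78.2, 112 and 94.7 CPM and Haus4, an augmin subunit, at 43.1, 79.7 and 65.9 CPM. APC/C genes other than the members were highest in tumour 2 in 9 of 17, with Anapc5 at 443, 575 and 613 CPM and Anapc2 at 81.7, 88.7 and 101 CPM. Their median ratio of tumour 3 over tumour 2 was -0.06, nearer to the -0.02 of all genes than the members' -0.56.

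Condensin compacts chromosomes and cohesin holds sister copies together. Of 8 condensin genes 4 were highest in tumour 1 and 4 in tumour 2, against 32.4% and 35.8% of all genes tested. Lower in tumour 3 than in tumour 2 were 7 of the 8, against 5897 of the 11478 genes tested. The list's median log2 ratio of tumour 3 over tumour 2 was -0.55, beside the members' -0.56. Ncapd2 had 278, 272 and 252 CPM and the ATPase gene Smc4 241, 256 and 105 CPM. Of 14 cohesin genes 7 were highest in tumour 1, with a median log2 ratio of tumour 2 over tumour 1 of -0.19, and Rad21 and Smc3 had 241, 258 and 267 and 221, 187 and 163 CPM. The median longest transcript was 5154 nt in the cohesin list and 3645 nt among the members. With the length and GC trend removed the median of tumour 2 over tumour 1 was 0.17 for cohesin, 0.28 for condensin, 0.69 for DNA replication and 0.38 for the members, against 0.11 over all genes.

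The list of MuvB, E2F and NF-Y regulators, which also holds RB family genes and Cdkn1a, was spread over the tumours. Of its 23 genes 8, 8 and 7 were highest in tumours 1, 2 and 3, against 32.4%, 35.8% and 31.8% of all genes tested. E2f4, the E2F of the repressive DREAM complex, was the most abundant per length at 425 ± 55.2 TPM (SD, n = 3), and Tfdp1, the E2F partner, followed with 189 ± 32.0 TPM. E2f4 had 280.3, 372 and 392 CPM, lowest in tumour 1. Mybl2, which encodes B-MYB, and Cdkn1a, which encodes p21, were singled out for their roles after their values were seen. Mybl2 had 61.2, 71.6 and 86.1 CPM, highest in tumour 3. Cdkn1a had 0.71, 3.67 and 0.912 CPM, the lowest level per length of the list, from 11, 53 and 14 counts.

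**Figure D5:**
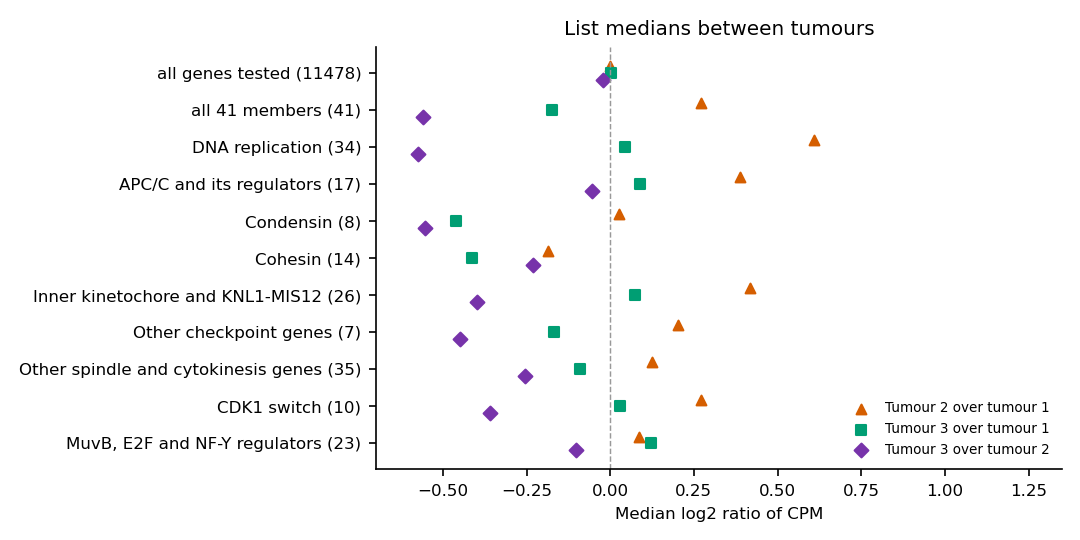
Median log2 ratio of CPM (horizontal axis) between pairs of tumours for all genes tested, the 41 members and 9 other lists, with the number of genes that passed the filter in brackets. The diamonds of tumour 3 over tumour 2 lie at -0.56 for the members and -0.57 for DNA replication, and at -0.06 for the APC/C list.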

How the data were processed

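RNA from sorted B220+GFP+ spleen cells of 3 pBIC tumours was sequenced as poly(A) RNA with single reads of 50 nt, per the labels. The deposited values are raw counts per gene made by the authors. The submitters' processing notes name FastQC, STAR 2.5.2b, featureCounts 1.6.0 and build mm10. For counting options, strand use and annotation release the entry is: not given in the sources used here. Genes were matched to GENCODE M21 by ID. Libraries held 15022902 to 15141009 counts, and the lowest member, Pttg1, had 95% Poisson intervals of 11.3 to 15.0 CPM, 16.0 to 20.4 CPM and 13.6 to 17.6 CPM, covering counting error only.

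With 1 group, edgeR 4.0.16 (R 4.3.3) fitted an intercept after filterByExpr, which left 11478 genes. Each gene's residual deviance on 2 df, divided by the robust trended prior, was set against F(2, 15.8), one-sided, with Benjamini-Hochberg adjustment over all genes and a threshold of 0.05. The common biological coefficient of variation was 0.345. The test was checked on simulated data. Levels were CPM scaled by TMM factors of 1.02, 0.960 and 1.02, and TPM over union exon lengths. Gene pairs were compared in log2(TPM + 1) by exact sign-flip tests. Promoter letters were searched in RefSeq windows of build GRCm38.p6. Alternatives used limma 3.58.1, DESeq2 1.42.0 size factors, other filters and each tumour left out.

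The members and lists were chosen with earlier results of these data known. Every member is given in every tumour. The 10 members with the smallest p have their range and adjusted p, and of each other list the 2 genes highest in TPM are named. Not every marker that led its list is named, and some of those named were chosen after their values were seen. Promoters are shown for members with a CHR match by highest TPM, leaving out chromosome 18. Labels do not say whether each library came from a separate mouse.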

Additional observations from a re-analysis of the deposited data

How the results depend on the processing

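The 16 variable genes became 0 with library totals as the only scaling, 0 with a mean count of at least 10, 0 without the robust prior, 164 with no filter beyond 1 count, 8 with limma voom, which was added after seeing the data, and 0 to 11 when each tumour was left out. No member was called under any of these. The 8 members past 2-fold became 24 past 1.5-fold, and 1 to 5 when each tumour was left out. The first count could not fall and the second could not rise, so neither shows stability. The median member level of 5.62 in log2(TPM + 1) was 6.28 without division by length and 5.39 without the 7 members that overlap a counted gene on the opposite strand, the latter added after seeing the data. Mad2l1 minus Cdc20 turned from -1.98 to 0.17 without division by length. The other pairs kept their sign, but Ccnb1 minus Ccnb2 shrank to -1.05 and Pttg1 minus Espl1 grew to -2.49 under that setting. The cause was not tested where settings changed the count of variable genes. The adjusted p of the named members stayed far from the threshold and the p of gene pairs was at or near the smallest that 3 tumours allow, so neither shows stability. No paired analysis was possible because there is 1 group. With 3 libraries and no control group, the data give the spread between tumours only, and the common biological coefficient of variation of 0.345 limits what single genes can show.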
